A study of Homo sapiens with 6 samples.

Results

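The genes of the proteasome were followed in MDA-MB-231 cells, a human triple negative breast cancer line, that had been kept for 24 h with 30 µM PDBAG1 or with its vehicle. PDBAG1 is a peptide derived from a fragment of glycerol-3-phosphate dehydrogenase 1 and joined to a cell-penetrating sequence, and the composition of the vehicle is not given in the sources used here. Members were all genes whose symbol begins with PSM, a letter from A to G and a digit, which gave 49 of the 17631 genes in the tables. Of these, 47 encode subunits, activators, an inhibitor or assembly chaperones of the proteasome, and 2 carry a matching symbol but encode no subunit (PSMC3IP and PSME3IP1). Each group held 3 libraries of cells of this 1 line, all grown in the same serum-containing medium. Nothing in the sources states that the libraries came from separate cultures, so the p-values measure only the spread between these samples.

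The proteasome is the protease that degrades most ubiquitin-tagged proteins in the cytosol and nucleus. Its 20S core is a barrel with outer rings of alpha subunits (PSMA genes), which gate the entrance, and inner rings of beta subunits (PSMB genes), which hold the protease sites. The 19S regulatory particle (PSMC and PSMD genes) recognises, unfolds and feeds in tagged substrates, while the PA28 and PA200 activators (PSME genes) open the core without ubiquitin or ATP, and the PSMG chaperones help to build the core. In cells exposed to interferon gamma, the catalytic subunits PSMB8, PSMB9 and PSMB10 take the places of PSMB5, PSMB6 and PSMB7, which yields the immunoproteasome, a form that favours peptides for class I antigen presentation. The study used proteasome inhibitors to ask how PDBAG1 acts on the level of a mitochondrial protein, and the comparison of vehicle with PDBAG1 shows what the RNA of the protease itself did.

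Proteasome transcripts were slightly lower with PDBAG1. Of the 46 proteasome genes tested, 21 fell (45.7%), against 15.9% of the 12582 genes tested in all, and 1, PSMG3, rose (2.17%), against 21.7% of all genes tested (limma, adjusted p under 0.05). With trends of transcript length and GC content removed 7 were lower (15.2%), against 15.4% of all genes tested in that fit. Without the trend of variance 12 were lower, and the share of all genes in this fit is not given here. The changes were small, since the log2 fold changes ran from -0.40 for PSMG1 to 0.16 for PSMG3 and their median was -0.12, beside a median of 0.03 over all genes tested. Values lay below 0 in 40 of the 46 genes. None of them reached a 1.5-fold change, against 3.34% of all genes tested, and the count was also 0 with an unadjusted p under 0.05 and by limma without a trend of variance. In 27 of 46 genes (58.7%) every PDBAG1 library lay below every vehicle library, against 20.2% of all genes tested, and in 3 genes (PSMD3, PSME1 and PSMG3) every PDBAG1 library lay above, against 27.2%.

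**Figure D1:**
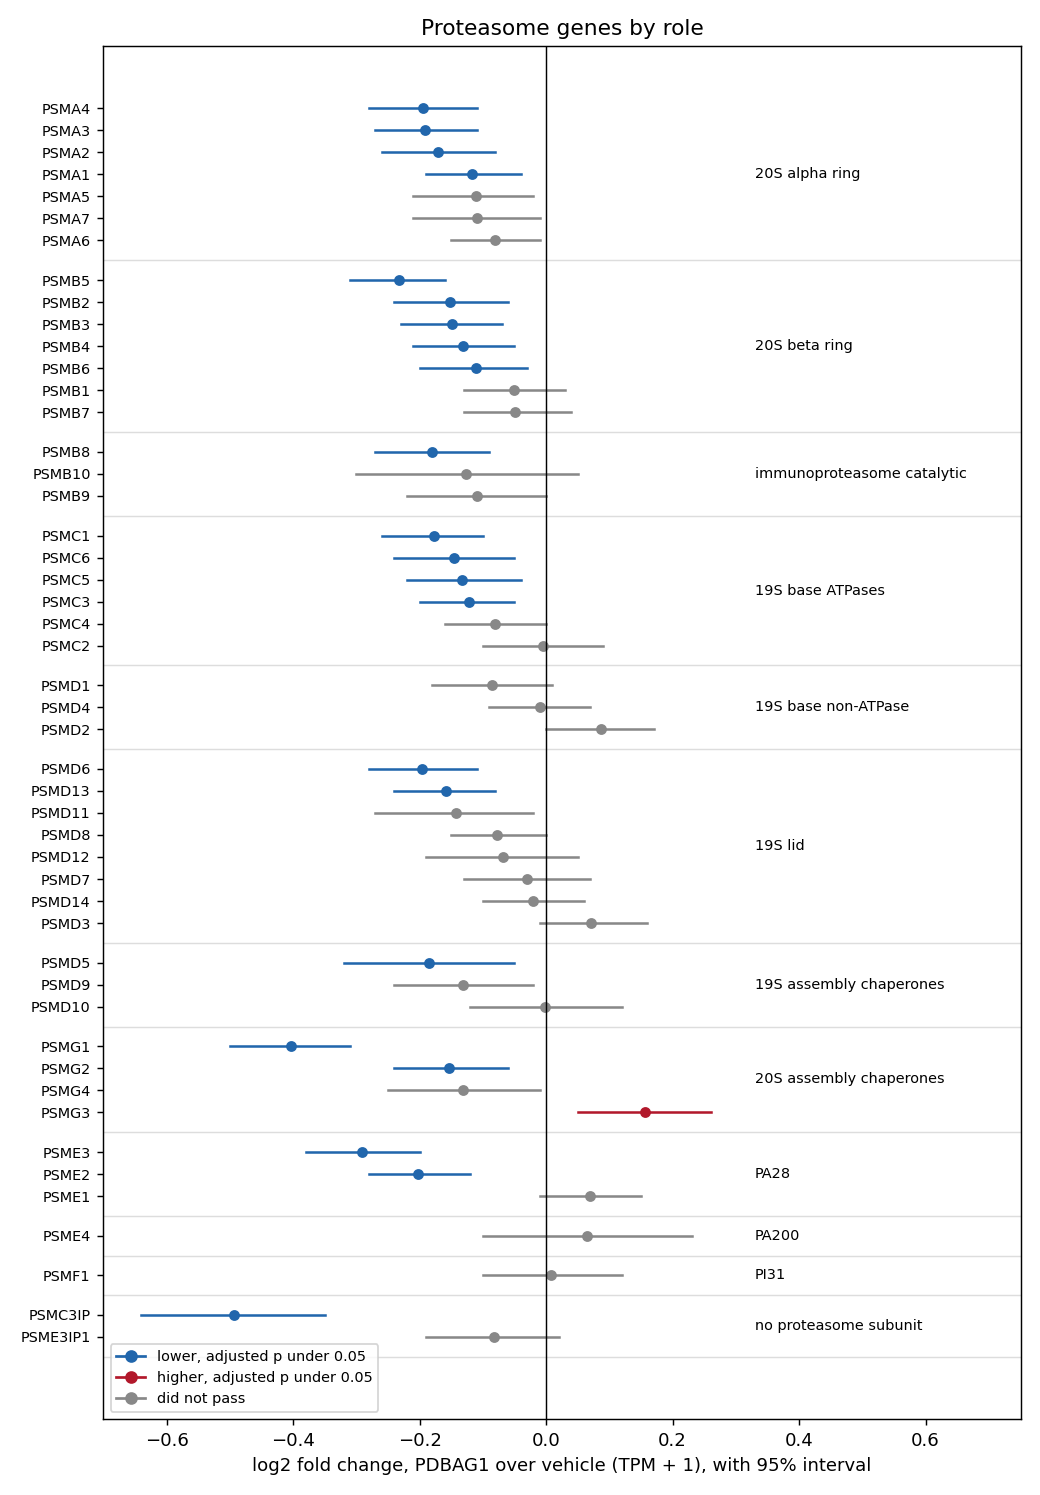
Log2 fold change of each tested gene, PDBAG1 over vehicle, on log2(TPM + 1), with its 95% interval from the limma fit (3 libraries a group) and genes grouped by role. Points run from -0.49 for PSMC3IP to 0.16 for PSMG3, with 21 proteasome genes and PSMC3IP in blue (lower), PSMG3 in red (higher) and the rest in grey. Of the genes called as deposited, only PSMA1 turns its sign once trends with transcript length and GC content are removed.

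The summed level of the 47 proteasome genes showed the same shift with little spread. The sum was 10890, 10920 and 10950 TPM (a transcript level scaled for transcript length and for the total of its library) in the vehicle libraries and 10130, 10120 and 10160 TPM in the PDBAG1 libraries. The 3 PDBAG1 sums lay below all 3 vehicle sums, and the means stood at a ratio of 0.928. Proteasome genes thus took 1.09% ± 0.00317 (SD, n = 3) of all TPM with vehicle and 1.01% ± 0.00257 (SD, n = 3) with PDBAG1. TPM is a share of the RNA of a library. Fewer proteasome transcripts per cell, more of other transcripts and a different mixture of cells therefore cannot be told apart.

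The libraries themselves were alike in breadth, with 12392 to 12611 genes at 1 TPM or more. VIM (4174 to 4346 TPM with vehicle and 5758 to 5942 TPM with PDBAG1) and CD44 (313 to 331 TPM with vehicle and 463 to 499 TPM with PDBAG1) were abundant and higher in all 3 PDBAG1 libraries, while EPCAM (3.92 to 5.78 TPM), ESR1 (1.96 to 3.38 TPM) and PGR (0 to 0.06 TPM) were low and ERBB2 stood at 23.6 to 25.4 TPM, levels that fit a mesenchymal line without hormone receptors, although the labels also call the source breast cancer tissue. Of the 5 markers of other cell types that could be read, PTPRC stayed within 0.86 to 1.41 TPM, VWF, ADIPOQ and COL1A1 within 0.02 to 4.92 TPM, and PECAM1 lay at 3.78 to 4.08 TPM with vehicle and at 7.87 to 9.15 TPM with PDBAG1. CD3E was not analysed here. Whether the VIM, CD44 or PECAM1 difference has any part in the proteasome values was not tested.

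Promoters of 41 of the 47 genes were available from RefSeq (GRCh38.p14, 250 bases before to 50 bases after the start) and were searched on both strands for 5 motifs. The core of the antioxidant response element (TGACNNNGC), the kind of site used by NFE2L1 and NFE2L2, occurred in 13 of 41 proteasome promoters (31.7%), against 13.6% of all 27305 promoters. The NF-Y box CCAAT was in 19 (46.3%) against 35.7%, the core of the interferon-stimulated response element (GAAANNGAA) in 7 (17.1%) against 8.29%, the gamma-activated site (TTCNNNGAA) in 4 (9.76%) against 7.88%, and part of an NF-kB site (GGGANTTTC) in 0 against 1.3%. A match is a string of letters and not a binding site, no pair of these motifs was treated as exclusive, and some promoters hold several. Stretches of 100 bases are shown for PSMG1, the gene with the largest fall, for PSMB5, the constitutive catalytic subunit that fell furthest, and for PSMB9 and PSMB10, the immunoproteasome subunits with a match, each 5′ to 3′ on the strand of its gene and with 1 motif match in capitals.
PSMG1, chr21:39183602-39183701, minus strand, antioxidant response element core in capitals: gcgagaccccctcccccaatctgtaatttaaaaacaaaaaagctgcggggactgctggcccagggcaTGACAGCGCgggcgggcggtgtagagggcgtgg
PSMB5, chr14:23035321-23035420, minus strand, NF-Y box in capitals: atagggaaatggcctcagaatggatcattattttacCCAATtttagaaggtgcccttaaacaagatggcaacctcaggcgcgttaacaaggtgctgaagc
PSMB9, chr6:32853992-32854091, plus strand, antioxidant response element core on the other strand in capitals: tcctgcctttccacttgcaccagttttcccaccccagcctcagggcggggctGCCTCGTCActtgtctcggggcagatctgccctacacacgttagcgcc
PSMB10, chr16:67936851-67936950, minus strand, interferon-stimulated response element core in capitals: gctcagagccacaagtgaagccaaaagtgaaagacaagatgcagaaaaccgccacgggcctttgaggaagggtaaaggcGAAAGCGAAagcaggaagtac

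Among the constitutive catalytic subunits, PSMB5 and PSMB6 fell and PSMB7 did not pass the test. PSMB5, the chymotrypsin-like site and the main target of bortezomib (GRCh38 chromosome 14, 23016543 to 23035230), stood at 388, 384 and 379 TPM with vehicle and at 336, 320 and 323 TPM with PDBAG1. The groups were well apart, with a log2 fold change of -0.23 ± 0.04 (SE) and an adjusted p of 0.000215. PSMB6, the caspase-like site, stood at 383, 402 and 384 TPM with vehicle and at 377, 355 and 351 TPM with PDBAG1. The highest PDBAG1 library lay close under the lowest vehicle library, and the call (log2 fold change -0.11, adjusted p = 0.0412) was lost on leaving out vehicle 2, vehicle 3, PDBAG1 2 or PDBAG1 3, with adjusted p from 0.0784 to 0.168, with median-of-ratios scaling or quantile normalisation, and with length and GC trends removed (-0.04, adjusted p = 0.451). PSMB7, the trypsin-like site, stood at 467, 482 and 510 TPM with vehicle and at 471, 460 and 479 TPM with PDBAG1. Its groups overlapped (log2 fold change -0.05, 95% interval -0.13 to 0.04, adjusted p = 0.354).

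The immunoproteasome subunits were present at lower levels than their counterparts, and PSMB8 was the member of the group that fell. PSMB8, the counterpart of PSMB5 (chromosome 6, 32840717 to 32844679), stood at 93.4, 93.8 and 93.0 TPM with vehicle and at 83.4, 81.8 and 81.7 TPM with PDBAG1. Each group held together within 2 TPM and the groups lay far apart by comparison, with a log2 fold change of -0.18 ± 0.04 and an adjusted p of 0.00414. PSMB9, the counterpart of PSMB6, lies on the opposite strand to PSMB8. The annotated spans of these genes overlap by 544 bases, with 0 bases shared between the exons of their canonical transcripts. PSMB9 stood at 41.7, 40.3 and 41.2 TPM with vehicle and at 39.4, 38.1 and 36.5 TPM with PDBAG1. Although the groups did not overlap, PSMB9 did not pass the test (log2 fold change -0.11, 95% interval -0.22 to 0.00, adjusted p = 0.119), though it did so with median-of-ratios scaling and with quantile normalisation. PSMB10, the counterpart of PSMB7, stood at 34.5, 32.8 and 37.0 TPM with vehicle and at 33.3, 27.4 and 35.1 TPM with PDBAG1. The groups overlapped, 374 exon bases are shared with another gene on the same strand, and PSMB10 did not pass (log2 fold change -0.13, 95% interval -0.30 to 0.05, adjusted p = 0.244). PSMB11, the beta subunit of cortical thymic epithelium, was listed at 0 in 4 libraries and at 0.06 TPM in vehicle 1 and PDBAG1 2, and was not tested. PSMA8, the testis form of an alpha subunit, was not analysed here.

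The balance between the immunoproteasome and constitutive forms moved little. The TPM ratio of PSMB8 to PSMB5 was 0.241, 0.244 and 0.245 with vehicle and 0.248, 0.256 and 0.253 with PDBAG1, that is slightly higher in all 3 PDBAG1 libraries. For PSMB9 to PSMB6 it was 0.109, 0.1 and 0.107 with vehicle and 0.104, 0.108 and 0.104 with PDBAG1. PSMB10 to PSMB7 gave 0.0739, 0.0681 and 0.0725 with vehicle and 0.0707, 0.0597 and 0.0732 with PDBAG1. The latter pairs of ranges overlapped, and these ratios are given as a description with no test. The highest of these ratios in any library was 0.256.

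The non-catalytic subunits of the core fell in part. Among the 7 alpha subunits 4 fell and 0 rose, with a median log2 fold change of -0.12 and values from -0.20 to -0.08. Among the 7 beta subunits 5 fell, catalytic members included, with a median of -0.13 and values from -0.23 to -0.05. Over all genes tested 15.9% were lower and 21.7% higher. With length and GC trends removed, 1 of 7 alpha and 2 of 7 beta genes were lower, beside 15.4% of all genes tested. Their medians were then -0.03 and -0.04. PSMA4, whose tail helps to close the gate of the core, stood at 311, 308 and 301 TPM with vehicle and at 261, 265 and 279 TPM with PDBAG1, a clear separation (log2 fold change -0.20, adjusted p = 0.00139). PSMA3 stood at 361, 355 and 339 TPM with vehicle and at 303, 310.5 and 311 TPM with PDBAG1. Its groups did not overlap either (log2 fold change -0.19, adjusted p = 0.00131). PSMA2 stood at 195, 212 and 198 TPM with vehicle and at 176, 181 and 179.9 TPM with PDBAG1, again without overlap (log2 fold change -0.17, adjusted p = 0.00598), and 1357 bases of its exons are shared with another gene annotated on the same strand. The calls of PSMA3 and PSMA2 were lost with length and GC trends removed, at -0.03 (adjusted p = 0.562) and -0.04 (adjusted p = 0.446). PSMA1 fell as well (log2 fold change -0.12, adjusted p = 0.0165), but not on leaving out vehicle 2, vehicle 3 or PDBAG1 2 (adjusted p = 0.0547 to 0.0677). Exon bases shared with another gene on the same strand number 801 for PSMA1 and 833 for PSMA6. PSMA5, PSMA6 and PSMA7 did not pass, with adjusted p of 0.063, 0.0611 and 0.0734, of which PSMA5 passed with either of the other scalings and PSMA7 without vehicle 1 (-0.16, adjusted p = 0.00854) or PDBAG1 1 (-0.13, adjusted p = 0.0384).

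Of the beta subunits without a protease site, PSMB2 stood at 89.3, 89.3 and 90.4 TPM with vehicle and at 80.7, 81.4 and 79.6 TPM with PDBAG1. The libraries of each group were close together and the groups were apart (log2 fold change -0.15, adjusted p = 0.0118, or 0.0553 without vehicle 3). PSMB3 stood at 539, 548 and 542 TPM with vehicle and at 495, 504 and 472 TPM with PDBAG1. It fell by a like amount (log2 fold change -0.15, adjusted p = 0.00559), and PSMB4, among the most abundant of the core genes at 546 TPM with vehicle, fell too (log2 fold change -0.13, adjusted p = 0.0102, or 0.0529 without vehicle 3). With the trends removed PSMB3 was at -0.06 (adjusted p = 0.259) and PSMB4 at -0.04 (adjusted p = 0.418), and neither call was kept. PSMB1 did not pass (log2 fold change -0.05, adjusted p = 0.315). The alpha genes ran from 91.9 TPM (PSMA5) to 724 TPM (PSMA7) and the beta genes from 89.6 TPM (PSMB2) to 546 TPM (PSMB4) with vehicle, although their products are built into the core in equal numbers.

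The base of the 19S particle holds ATPases, which unfold the substrate, and scaffold and receptor subunits. Of 6 ATPases 4 fell, beside 15.9% of all genes tested, with a median log2 fold change of -0.13. With the trends removed 1 of the 6 was lower, beside 15.4% of all genes tested, with a median of -0.06. Of 3 non-ATPase subunits 0 passed in either direction, with a median of -0.01. At an unadjusted p under 0.05 from limma, 0 of these 3 were lower and 1 was higher. The same cut-off applied to the full 12582 genes gave 2475 falls and 3339 rises. With only 3 genes, these counts cannot set the non-ATPase subunits apart from genes at large. The difference between the ATPases and the non-ATPase subunits was not tested. PSMC1, which helps to open the gate of the core, stood at 348, 348 and 344 TPM with vehicle and at 299, 304 and 316 TPM with PDBAG1. The groups did not overlap (log2 fold change -0.18, adjusted p = 0.00173), and the exons of PSMC1 share 3654 bases with those of NRDE2 on the opposite strand, whose reads cannot be told apart if the libraries were not counted by strand. GENCODE also names 13 pseudogenes of PSMC1, so that its level is less certain than that of a gene without copies. PSMC6 stood at 176, 167 and 168 TPM with vehicle and at 149, 153 and 160 TPM with PDBAG1 (log2 fold change -0.14, adjusted p = 0.0162, or 0.053 to 0.0599 without vehicle 1 or PDBAG1 2). PSMC5 stood at 369, 351 and 367 TPM with vehicle and at 326, 318 and 348 TPM with PDBAG1 (log2 fold change -0.13, adjusted p = 0.021, or 0.0634 to 0.1 without vehicle 1, vehicle 3 or PDBAG1 2, and also lost with quantile normalisation). In both genes the groups stayed apart, by a narrow gap in the case of PSMC5. PSMC3 also fell (log2 fold change -0.12, adjusted p = 0.0145, or 0.0556 to 0.0676 without vehicle 2 or PDBAG1 2), while PSMC4 (-0.08, adjusted p = 0.114) and PSMC2 (log2 fold change -0.00, 0.02 after quantile normalisation) did not pass. The calls of PSMC3, PSMC5 and PSMC6 were lost with the trends removed, at -0.10, -0.07 and -0.05 (adjusted p = 0.0609, 0.31 and 0.275). That of PSMC3 was kept when the removal used the median length of protein-coding transcripts (-0.11, adjusted p = 0.0249).

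PSMD2, a large scaffold subunit of the base, stood at 469, 445 and 443 TPM with vehicle and at 473, 468 and 499 TPM with PDBAG1. PDBAG1 2 lay just under vehicle 1, so the groups overlapped (log2 fold change 0.09, 95% interval 0.00 to 0.17, adjusted p = 0.0951), and PSMD2 passed as higher with quantile normalisation alone among the scalings. PSMD1, the other scaffold, stood at 124, 118 and 118 TPM with vehicle and at 109, 111 and 119 TPM with PDBAG1. The groups overlapped here too, with the opposite sign (log2 fold change -0.08, adjusted p = 0.168). PSMD4, a receptor for ubiquitin chains, had a log2 fold change of -0.01, which was 0.00 after quantile normalisation.

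In the lid, which removes ubiquitin from the substrate, 2 of 8 genes fell and 0 rose, beside 15.9% lower and 21.7% higher over all genes tested. The median log2 fold change was -0.07. With the trends removed 0 lid genes were lower and 1, PSMD14, was higher (0.10, adjusted p = 0.0416). Over all genes tested in that fit, 15.4% were lower and 23.3% higher. PSMD14 was not called when the removal used the median length of protein-coding transcripts (0.07, adjusted p = 0.144). PSMD6 stood at 213, 206 and 202 TPM with vehicle and at 180.3, 185 and 177 TPM with PDBAG1. PSMD13 stood at 229, 219 and 224 TPM with vehicle and at 198, 199 and 205 TPM with PDBAG1. Both showed separate groups, with log2 fold changes of -0.20 (adjusted p = 0.00157) and -0.16 (adjusted p = 0.00519). Neither was called with the trends removed (-0.07 and -0.10, adjusted p = 0.172 and 0.0786). Both were called when the removal used the median length of protein-coding transcripts (-0.10 and -0.12, adjusted p = 0.0478 and 0.0256). PSMD14, the deubiquitinase of the lid, stood at 184, 180.02 and 188 TPM with vehicle and at 182, 179.5 and 184 TPM with PDBAG1. Its ranges lay over each other (log2 fold change -0.02, 95% interval -0.10 to 0.06, adjusted p = 0.721). PSMD3 was the lid gene whose PDBAG1 libraries all lay above the vehicle libraries, and it did not pass (log2 fold change 0.07, adjusted p = 0.179) except with quantile normalisation.

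Of the chaperones that assemble the 19S base, PSMD5 fell. It stood at 48.1, 42.2 and 42.6 TPM with vehicle and at 36.4, 39.3 and 40.8 TPM with PDBAG1. Vehicle 1 was the highest library and PDBAG1 1 the lowest, and the call (log2 fold change -0.18, adjusted p = 0.0347) was lost without vehicle 1, PDBAG1 1 or PDBAG1 2, with adjusted p of 0.135, 0.105 and 0.0709, and with the trends removed (-0.13, adjusted p = 0.0692). PSMD9, which shares 391 exon bases with another gene on the same strand, stood at 50.2, 49.6 and 51.2 TPM with vehicle. With PDBAG1 it stood at 47.8, 44.3 and 45.7 TPM. Its groups did not overlap but it did not pass (log2 fold change -0.13, adjusted p = 0.0557) except with the other scalings, without PDBAG1 1 or with trends of the median transcript length removed. PSMD10, also known as gankyrin, had a log2 fold change of -0.00 (95% interval -0.12 to 0.12).

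The chaperones of the 20S core held both the largest fall and the rise of the whole set. PSMG1, which pairs with PSMG2 to guide the alpha ring (chromosome 21, 39174769 to 39183488), stood at 142, 146 and 144 TPM with vehicle and at 107, 106 and 114 TPM with PDBAG1. The groups lay far apart, with a log2 fold change of -0.40 ± 0.04, or 0.756-fold (adjusted p = 1.1e-05). Its partner PSMG2 stood at 141, 140.5 and 140.5 TPM with vehicle and at 123, 132 and 124 TPM with PDBAG1. PSMG2 had a log2 fold change of -0.15 (adjusted p = 0.0118), which was -0.00 (adjusted p = 0.965) with the trends removed, and the call was also lost without the trend of variance (adjusted p = 0.0521). The TPM ratio of PSMG1 to PSMG2 went from 1.01, 1.04 and 1.02 with vehicle to 0.868, 0.797 and 0.922 with PDBAG1.

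PSMG3, which pairs with PSMG4, stood at 74.1, 74.4 and 71.1 TPM with vehicle and at 85.7, 82.1 and 77.6 TPM with PDBAG1. All 3 PDBAG1 libraries lay above the vehicle libraries and PSMG3 rose (log2 fold change 0.16, adjusted p = 0.0223), a call that was lost without vehicle 3, PDBAG1 1 or PDBAG1 2 (adjusted p = 0.0683 to 0.102) and with median-of-ratios scaling. PSMG4 had a log2 fold change of -0.13 and did not pass (adjusted p = 0.0767). The ratio of PSMG3 to PSMG4 was 1.47, 1.37 and 1.33 with vehicle and 1.67, 1.75 and 1.68 with PDBAG1. As with PSMG1 and PSMG2, the ranges of this ratio did not overlap, and it was not tested.

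Within the PA28 family PSME2 and PSME3 fell and PSME1 did not pass. PSME3, the nuclear form that makes rings of its own, stood at 186, 179 and 180.4 TPM with vehicle and at 147, 144 and 154 TPM with PDBAG1. The groups were far apart, with a log2 fold change of -0.29 ± 0.04 (adjusted p = 0.000107). PSME2, the beta subunit of the interferon-inducible form, stood at 343, 365 and 355 TPM with vehicle and at 309, 309.6 and 304 TPM with PDBAG1, with no overlap and a log2 fold change of -0.20 ± 0.04 (adjusted p = 0.000733), or -0.09 with the trends removed (adjusted p = 0.0683). When the removal used the median length of protein-coding transcripts, PSME2 was called lower (-0.11, adjusted p = 0.0253). GENCODE names 6 pseudogenes of PSME2, which may share its reads. PSME1, the alpha subunit with which PSME2 forms mixed rings, stood at 266, 251 and 257 TPM with vehicle and at 269, 270.3 and 273 TPM with PDBAG1. Its PDBAG1 libraries all lay above the vehicle libraries (log2 fold change 0.07, 95% interval -0.01 to 0.15, adjusted p = 0.157).

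The TPM ratio of PSME1 to PSME2 therefore stood at 0.773, 0.687 and 0.725 with vehicle and at 0.870, 0.873 and 0.896 with PDBAG1, with no overlap and with no test. PSME4, which encodes PA200, stood at 31.3, 26.9 and 29.3 TPM with vehicle and at 27.5, 30.7 and 33.6 TPM with PDBAG1. PSMF1, the inhibitor PI31, stood at 37.8, 37.0 and 36.5 TPM with vehicle and at 38.3, 37.1 and 36.5 TPM with PDBAG1. Neither was separated by group, with log2 fold changes of 0.06 (95% interval -0.10 to 0.23) and 0.01 (95% interval -0.10 to 0.12, and -0.03 with median-of-ratios scaling or quantile normalisation).

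The 2 genes that match by name only also differed from each other. PSMC3IP, a cofactor of strand exchange in homologous recombination, stood at 43.5, 40.7 and 38.4 TPM with vehicle and at 30.1, 26.2 and 30.0 TPM with PDBAG1. It fell further than any proteasome gene tested (log2 fold change -0.49 ± 0.07, adjusted p = 7.9e-05), and its exons share 775 bases with those of MLX on the opposite strand. PSME3IP1, which binds PSME3, stood at 64.0, 62.1 and 62.6 TPM with vehicle and at 57.3, 59.5 and 61.2 TPM with PDBAG1. Its groups did not overlap, but it did not pass (log2 fold change -0.08, adjusted p = 0.19).

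Proteasome transcripts are short, and short transcripts were lower with PDBAG1 across all genes. The canonical transcripts of the 46 genes (GENCODE release 44) had a median of 1494 bases, from 762 to 8154, against 3280 bases over 12433 genes tested, of which 14.3% were shorter than the proteasome median. Over all genes the Spearman correlation of log2 fold change with length was 0.21 across 12433 genes, and within the proteasome genes it was 0.08 across 46 genes, both across genes that share the same 6 libraries and given as a description. Under 1000 bases the median log2 fold change was -0.09 over all genes and -0.13 over 11 proteasome genes, with 32.4% of all genes and 5 of the 11 lower. From 1000 to 1500 bases the medians were -0.05 and -0.13, with 29.3% and 7 of 12 lower. From 1500 to 2000 bases they were -0.01 and -0.08, with 21.6% and 3 of 7 lower. From 2000 to 3000 bases they were 0.01 over all genes and -0.00 over 5 proteasome genes, with 18.6% and 1 of 5 lower. At 3000 bases or more they were 0.07 over all genes and -0.14 over 11 proteasome genes, with 10.2% and 5 of 11 lower. PSMA4, PSMB2, PSMC1, PSMD5 and PSME3 were these 5 long members. This grouping rests on the canonical transcript. By the median length of their protein-coding transcripts, PSMA4 (944 bases), PSMD5 (1538 bases) and PSMC1 (2889.5 bases) lie under 3000 bases. PSMB2 and PSME3 stay above it.

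After trends with transcript length and GC content had been removed from each library, 7 of 46 proteasome genes were lower (15.2%), against 15.4% of the 12433 genes tested, and 3 were higher (6.52%), against 23.3%. Their median log2 fold change was then -0.04. The 7 genes were PSMA4, PSMB2, PSMB5, PSMB8, PSMC1, PSME3 and PSMG1, and all 7 were also lower as deposited. PSMG1 remained at -0.29 (adjusted p = 0.000106), PSME3 at -0.27 (adjusted p = 0.000139), PSMC1 at -0.19 (adjusted p = 0.000524), PSMB5 at -0.15 (adjusted p = 0.00627) and PSMB8 at -0.12 (adjusted p = 0.0363). PSME1 (0.16, adjusted p = 0.0133) and PSMG3 (0.16, adjusted p = 0.00976) were higher, as was PSMD14 (0.10, adjusted p = 0.0416). PSMA1 was at 0.03 (adjusted p = 0.605).

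The length assigned to a gene mattered for the removal. The removal was also run with the median length over the protein-coding transcripts of each gene, a setting chosen after seeing the data. It left 11 proteasome genes lower (23.9%), against 15.8% of the 12359 genes tested. In the same fit 3 were higher, against 23.9% of all genes tested, and the median log2 fold change was -0.05. The lower genes included PSMC3, PSMD6, PSMD9, PSMD13 and PSME2, which were not called with the canonical length. The higher genes were PSMD10, PSME1 and PSMG3, while PSMD14 was not called (0.07, adjusted p = 0.144). PSMA4 is 4378 bases long by its canonical transcript and 944 bases by the median of its protein-coding transcripts. Its log2 fold change was -0.17 (adjusted p = 0.00122) with the former length and -0.07 (adjusted p = 0.208) with the latter. PSMB5, PSMB8, PSMC1, PSME3 and PSMG1 were the 5 genes called lower as deposited that were also called under each of the 14 alternative settings.

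Genes that work with the proteasome were read in the same fit. Of 12 other 26S subunits and partners, 5 fell and 0 rose, beside 15.9% lower and 21.7% higher over all genes tested. PITHD1, which encodes a proteasome-binding protein, fell from 50.9, 56.5 and 56.4 TPM to 43.5, 40.9 and 46.4 TPM (log2 fold change -0.32, adjusted p = 0.00109). PAAF1, a regulator of 19S assembly (-0.22, adjusted p = 0.0128), and IPO9, an importin that carries proteasomes into the nucleus (-0.18, adjusted p = 0.0273), also fell, while the remaining calls were ADRM1, a ubiquitin receptor, and POMP, the chaperone of the maturing core. The call of IPO9 was lost without vehicle 1, vehicle 3, PDBAG1 1 or PDBAG1 2 (adjusted p = 0.0677 to 0.103), that of PAAF1 without PDBAG1 2 (adjusted p = 0.0717), and that of POMP with the trends removed (-0.01, adjusted p = 0.922). Of 9 genes for ubiquitin shuttles and the VCP unfoldase 2 were called lower, UFD1 (-0.14, adjusted p = 0.0317) and RAD23B (-0.13, adjusted p = 0.0292), a share near the 15.9% of all genes tested. UFD1 was not called without vehicle 1, vehicle 2, PDBAG1 1 or PDBAG1 2 (adjusted p = 0.0504 to 0.139) or with the trends removed (-0.05, adjusted p = 0.434). RAD23B was not called without vehicle 1, 2 or 3 or PDBAG1 2 (adjusted p = 0.0586 to 0.137) or with the trends removed (-0.10, adjusted p = 0.0659). RAD23B was called when the removal used the median length of protein-coding transcripts (-0.12, adjusted p = 0.0357).

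Of 6 genes for ubiquitin and its activating enzymes 3 rose and 0 fell, beside 21.7% higher and 15.9% lower over all genes tested. The activating enzymes UBA6 (log2 fold change 0.23, adjusted p = 0.027) and UBA1 (0.15, adjusted p = 0.0196) were among those that rose. UBA6 was not called without vehicle 2, vehicle 3, PDBAG1 2 or PDBAG1 3 (adjusted p = 0.0706 to 0.126), and UBA1 not without vehicle 2 or vehicle 3 (adjusted p = 0.0552 and 0.112), with median-of-ratios scaling (adjusted p = 0.0658) or with the trends removed (adjusted p = 0.117). With the trends removed 3 of the 6 genes were higher and 0 lower. Over all genes tested in that fit, 23.3% were higher and 15.4% lower. Of 4 genes for the control of proteasome transcription, NFE2L1, the factor that raises subunit genes when the proteasome is inhibited, rose from 152, 147 and 147 TPM to 176, 177 and 183 TPM (log2 fold change 0.27, adjusted p = 0.000155). NFE2L2, DDI2 and NGLY1 did not pass.

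Of 15 genes that control the immunoproteasome or supply class I peptides, 5 rose and 1 fell, beside 21.7% higher and 15.9% lower over all genes tested. TAPBP, which loads peptides on class I molecules, went from 57.8, 54.6 and 55.1 TPM with vehicle to 72.3, 81.9 and 79.6 TPM with PDBAG1 (log2 fold change 0.47, adjusted p = 1.8e-05). IFNGR2, a chain of the interferon gamma receptor (0.36, adjusted p = 0.000245), and IRF9, a factor of the interferon response (0.35, adjusted p = 0.000362), rose too, whereas TAP2, a chain of the peptide transporter, fell (-0.23, adjusted p = 0.00249). IRF1, which drives the immunoproteasome genes after interferon gamma, did not pass (log2 fold change -0.06, adjusted p = 0.502). TAP1, which lies within the annotated span of PSMB9 on the opposite strand, did not pass either (0.04, adjusted p = 0.613).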

How the data were processed

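RNA was read from 3 vehicle and 3 PDBAG1 libraries of MDA-MB-231 cells. The deposited values are TPM per gene, as the file headers state. The labels name HISAT2 2.0.4, Bowtie2 2.2.5 and RSEM 1.2.12, while the paper's methods name HISAT2 and FPKM, and the annotation release is not given in the sources used here. TPM carries no depth, so that counting error is unknown and no count test was run.

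Here genes with at least 1 TPM in 3 or more libraries were kept, log2(TPM + 1) was tested with limma 3.58.1 in R 4.3.3 (trend of variance, Benjamini-Hochberg over all 12582 genes), and genes with an adjusted p under 0.05 were called. A log2 fold change is PDBAG1 minus vehicle and understates low genes. The test was tried first on simulated data with changes of 1.5-fold or more. No proteasome gene reached that size, so the trial does not show how well changes this small are recovered. An exact permutation test of 3 against 3 cannot give a p under 0.1 and was not used. Replicate numbers did not pair the libraries (correlations of deviations -0.21, 0.01 and -0.08). Transcript lengths, GC content and overlaps came from GENCODE release 44, and trends with length and GC were removed by splines of 5 degrees of freedom a library. Tables and plots were made with Python 3.11.15, pandas 2.3.3 and matplotlib 3.10.9.

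Members and gene lists were chosen with earlier results of these data known. Values in every library were given for catalytic, activator and inhibitor genes and, in other roles, for up to 3 called members with the largest change. Where a role had fewer calls, up to 2 members were named. Of the other lists, up to 3 called genes were named, and some genes of these lists are not reported here. Further names (PSMA1, PSMB1, PSMB4, PSMC2, PSMC3, PSMC4, PSMD3, PSMD4, PSMD10, PSMD14, ADRM1, POMP, IRF1 and TAP1 among them) were chosen after their values were seen. Alternatives were other scalings, filters and pseudocounts, a replicate block, each library left out, no trend of variance and removal of length and GC trends.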

Additional observations from a re-analysis of the deposited data

How the results depend on the processing

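The 46 genes tested gave 15 to 25 lower calls under every alternative that kept the length and GC trends and the trend of variance, beside 21 as reported. The count was 7 once trends with length and GC content were taken out, 11 when this used the median length of each gene's transcripts (chosen after seeing the data) and 12 without the trend of variance. The higher count was 1 as reported, 3 with quantile normalisation and with either removal of trends, 0 with median-of-ratios scaling or without the trend of variance, and 0 to 1 on leaving out 1 library. The share of all genes called is given here only for the fit as reported and the 2 removals of trends. Under the other alternatives the counts therefore do not show how proteasome genes compared with all genes tested. The median log2 fold change was -0.16 with median-of-ratios scaling, -0.10 with quantile normalisation, -0.04 and -0.05 with the 2 removals of trends, and -0.13 to -0.11 on leaving out 1 library. With the replicate block 18 genes were lower and 1 higher, and since the numbers did not pair the libraries this bears only on the fit. No gene was called at 1.5-fold under any of the alternatives run.

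Signs turned with length and GC trends removed in PSMA1 (0.03), PSMA6 (0.07), PSMB1 (0.08), PSMB7 (0.06), PSMC2 (0.07), PSMD4 (0.05), PSMD7 (0.08), PSMD10 (0.13), PSMD14 (0.10) and PSMF1 (-0.06). With the median transcript length they turned in PSMA6 (0.05), PSMB1 (0.06), PSMB7 (0.04), PSMC2 (0.03), PSMD4 (0.03), PSMD7 (0.09), PSMD10 (0.14), PSMD14 (0.07) and PSME3IP1 (0.02). Quantile normalisation turned PSMC2 (0.02), PSMD4 (0.00) and PSMF1 (-0.03), and median-of-ratios scaling turned PSMF1 (-0.03). On leaving out 1 library the values ran from -0.02 to 0.02 for PSMC2, from -0.03 to 0.04 for PSMD10, from -0.06 to 0.00 for PSMD7, from 0.00 to 0.14 for PSME4 and from -0.01 to 0.02 for PSMF1, and signs turned within these ranges. Of these genes only PSMA1 was called as deposited. The cause was not tested.

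The tables carry no counts, so that the precision which depth gives to a single value is unknown, and 9 of the 22 calls were lost on leaving out at least 1 library.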
